A study of Mus musculus with 8 samples.

Results

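The 8 genes described here are the CB1 cannabinoid receptor gene Cnr1 and the genes of the enzymes that make and break down its lipid ligands: Dagla, Daglb, Mgll, Abhd6, Abhd12, Napepld and Faah. They were found by symbol among the 31053 genes of the single-cell count matrices, and each of the 8 matched 1 gene. The libraries came from the prefrontal cortex (PFC) and the striatum of untreated male C57BL/6N mice, labelled 8 to 10 weeks old (the study's methods give an older age), which were either wild type (WT) or heterozygous for Setd1a (Setd1a+/-). The mutant allele is a CRISPR-Cas9 frameshift deletion just ahead of the SET domain of this H3K4 methyltransferase, carried in 1 backcrossed line, and the WT mice were littermates. Each of the 4 groups (PFC WT, PFC Setd1a+/-, striatum WT and striatum Setd1a+/-) had 2 libraries, each made from the pooled cells of 2 mice, so that the library is the replicate throughout. The labels give the striatal tissue as nucleus accumbens, whereas the study's methods describe a dissection of dorsal and ventral striatum.

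Endocannabinoids are lipids made on demand in the membrane of a neuron that travel backward across the synapse, where they activate CB1, a Gi/o-coupled receptor on axon terminals, and lower transmitter release. The most abundant of them in brain, 2-arachidonoylglycerol (2-AG), is made by diacylglycerol lipases and hydrolyzed by monoacylglycerol lipase (Mgll) and by the serine hydrolases Abhd6 and Abhd12. Anandamide, the other main ligand, can be made by the phospholipase Napepld and is hydrolyzed by Faah. CB1 is best known in cortex from interneurons that contain cholecystokinin (Cck), and it is also present on cortical excitatory terminals and on striatal medium spiny neurons (MSNs).

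In the PFC, 8997 annotated cells in 8 types were available, and in the striatum 14690 cells in 10 types. The annotated cells of a library held 5999666 to 10669024 UMIs (unique molecular identifiers, 1 per captured RNA molecule) in the PFC and 6904716 to 13521114 in the striatum. Pairs of libraries shared 1 to 24 cell barcodes. Setd1a itself was at 8.45 and 11.2 CPM (a gene's UMIs per 1000000 UMIs of those cells) in the PFC WT and 5.59 and 9.33 in the PFC Setd1a+/- libraries, and at 13.4 and 15.2 in the striatum WT and 9.16 and 12.5 in the striatum Setd1a+/- libraries. It was lower in the Setd1a+/- library of all 4 same-numbered pairs. A frameshift deletion need not change this level. Of the cell type markers, 24 of 24 were highest in their own type in the PFC and 30 of 32 in the striatum. The exceptions were Gad2 and Slc32a1, which were highest in D1 MSN. The cluster annotated as striatal interneurons was mixed: 21.0 to 26.0% of its cells in a library carried a UMI of an excitatory marker (a list that includes Slc17a7 and Neurod6), and 16.4 to 21.0% carried such a UMI and none of the inhibitory markers. In PFC interneurons the first of these shares was 0 to 12.0% and the second was 0 in every library. The group named endothelial cells also held mural cell transcripts (Rgs5 and Vtn).

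Because the clusters were built from the genes of these same cells, the order of cell types is given as a description with no test. A type is said to stand apart where the range of its 4 libraries does not overlap the next. Counts come from 3′ tags, so that levels are compared between cells and not between genes.

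Cnr1 (GRCm38 chr4:33924593-33948831, plus strand) was highest in interneurons in both tissues. In PFC interneurons it was at 274 and 289 CPM in the WT libraries and at 433 and 503 CPM in the Setd1a+/- libraries, a mean of 375 ± 112 (SD, n = 4). In PFC excitatory neurons the 4 libraries lay between 125 and 172 CPM, with a mean of 155 ± 20.7. The ranges of interneurons and excitatory neurons did not overlap, and those of excitatory neurons and all glial and vascular types did not either. Oligodendrocyte progenitors (28.9 ± 7.74 CPM) and astrocytes (21.0 ± 11.9) came next and overlapped, and newly formed oligodendrocytes, oligodendrocytes, endothelial cells and microglia were at means of 7.79, 5.04, 3.11 and 1.80 CPM. A Cnr1 UMI was found in 66.2% of PFC interneurons and in 0.407% of microglia, the type with the lowest share. Median depth was 4546 to 7398.5 UMIs per cell in the first and 1980 to 2205.5 in the second, and after every cell was thinned to 1000 UMIs the shares were 29.6% and 0.0943%. Barcodes with at most 50 UMIs, which hold free RNA, gave 129 ± 33.3 CPM of Cnr1 in the PFC. All glial and vascular types of the PFC were below this level. The part of free RNA in the neuronal levels was not tested.

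**Figure D1:**
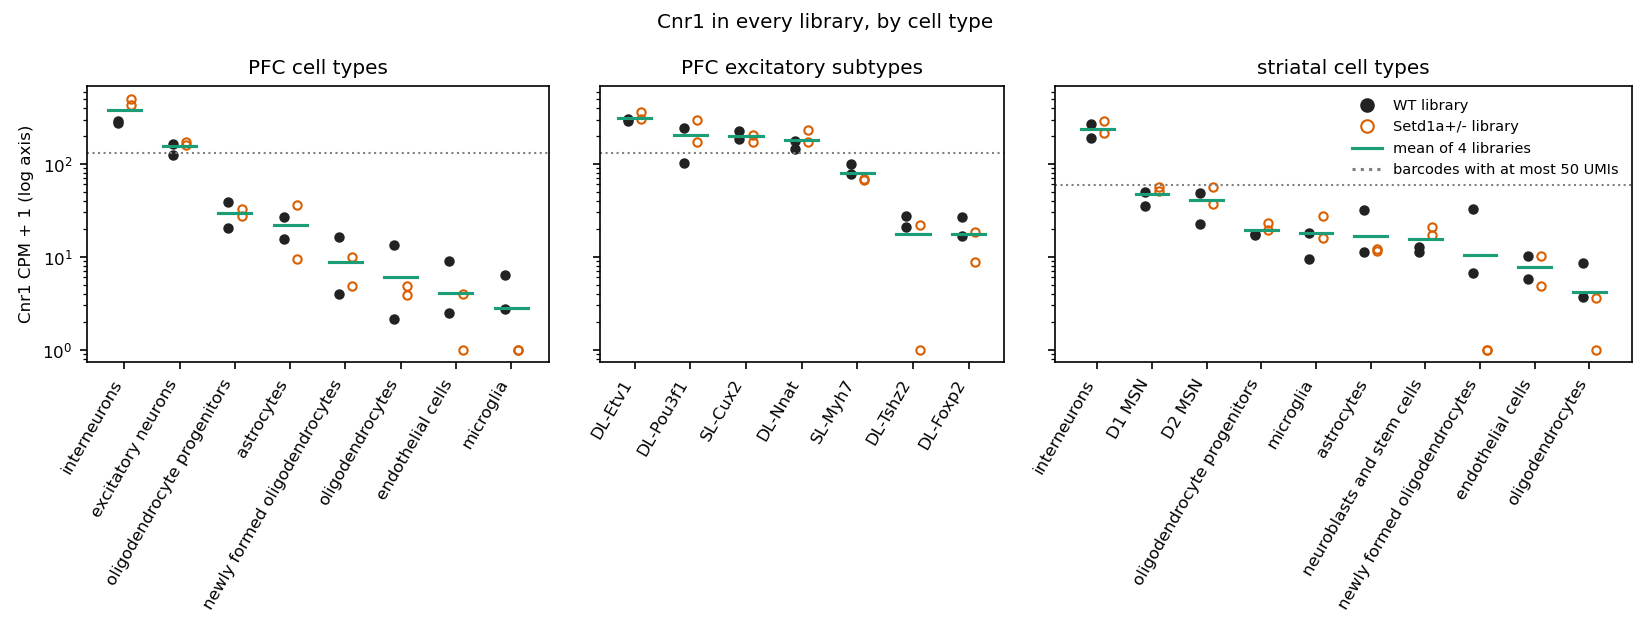
Cnr1 level as CPM + 1 on a log axis in each of the 4 libraries of a tissue, by cell type and excitatory subtype in order of the mean (green line); filled points are WT and open points Setd1a+/- libraries, and the dotted line is the level in barcodes with at most 50 UMIs. PFC interneurons (274 to 503 CPM) and DL-Etv1 neurons (286 to 357 CPM) are the highest, and DL-Foxp2 and DL-Tshz2 neurons lie among the glial types.

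The excitatory neurons of the PFC were far from uniform. DL-Etv1 neurons, a deep layer (DL) subtype, held Cnr1 at 286, 304, 357 and 306 CPM in PFC WT replicates 1 and 2 and Setd1a+/- replicates 1 and 2, a level like that of interneurons. DL-Pou3f1 (mean 201 ± 83.8 CPM), superficial layer (SL) SL-Cux2 (197 ± 24.7) and DL-Nnat neurons (180 ± 37.6) formed a middle group with overlapping ranges, and DL-Pou3f1 also overlapped DL-Etv1. SL-Myh7 neurons stood below this group, at 65.7 to 99.8 CPM. DL-Tshz2 (16.8 ± 11.6 CPM) and DL-Foxp2 neurons (16.6 ± 7.38) were lowest, and the 4 libraries of DL-Foxp2 gave 15.6, 25.7, 17.5 and 7.70 CPM. The level in these deep layer subtypes was no higher than in oligodendrocyte progenitors, and the ranges of both were apart from every other excitatory subtype.

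In the striatum, interneurons held Cnr1 at 265 and 188 CPM in the WT and 212 and 286 CPM in the Setd1a+/- libraries (mean 238 ± 45.3, n = 4). D1 MSN (46.8 ± 9.20 CPM) and D2 MSN (40.0 ± 14.5) overlapped each other and were well below the interneurons. A Cnr1 UMI was found in 40.2% of striatal interneurons, 11.7% of D1 MSN, 10.8% of D2 MSN and 0.749% of oligodendrocytes. After thinning to 1000 UMIs these shares were 14.9%, 3.92%, 3.73% and 0.304%. Median depth was 2657 to 3664 UMIs per cell in D1 MSN and 2035 to 2124 in oligodendrocytes. Barcodes with at most 50 UMIs gave 57.9 CPM of Cnr1 in the striatum (52.2 to 67.6 in the 4 libraries), above the mean of both MSN types, and the part of free RNA in the MSN levels was not tested. Within the interneuron cluster, cells without an excitatory marker UMI were at 311 ± 65.5 CPM and cells with one were at 75.5 ± 49.8, and the ranges (240 to 387 and 15.2 to 130) did not overlap.

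Of the diacylglycerol lipases, which make 2-AG, Dagla (GRCm38 chr19:10245265-10304877, minus strand) was highest in neurons. In PFC excitatory neurons it was at 26.8, 18.2, 24.6 and 22.7 CPM in the 4 libraries (mean 23.1 ± 3.62). These values overlapped those of astrocytes (13.9 ± 9.38) and lay above all 4 of interneurons (12.3 ± 6.01), and oligodendrocytes were at 0.464 CPM. In the striatum Dagla was at 9.75 ± 2.22 CPM in D2 MSN and 8.75 ± 1.42 in D1 MSN, and its order among D2 MSN, D1 MSN, microglia and interneurons is within the spread of the libraries. Daglb (GRCm38 chr5:143464584-143505942, plus strand) was instead highest in microglia, the brain's resident macrophages. There it was at 191, 151, 243 and 220 CPM in the PFC libraries and at 155, 137, 161 and 120 CPM in the striatal ones. The next type in both tissues was oligodendrocyte progenitors (45.7 ± 11.7 and 57.5 ± 7.51 CPM), and microglia did not overlap it in either tissue. In PFC excitatory neurons Daglb was at 42.0 ± 2.82 CPM, and among their subtypes DL-Tshz2 was lowest at 17.4 ± 4.66, overlapping only DL-Pou3f1, whose libraries ran from 16.8 to 71.1.

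Of the enzymes that break down 2-AG, Mgll and Abhd6 had their highest mean in astrocytes and Abhd12 in microglia. Mgll (GRCm38 chr6:88724412-88828360, plus strand), the monoacylglycerol lipase that removes most 2-AG in brain, was highest in astrocytes. In PFC astrocytes it was at 997 and 836 CPM in the WT and 1008 and 800 CPM in the Setd1a+/- libraries (mean 910 ± 108), and 81.5% of the cells carried a UMI. Newly formed oligodendrocytes (286 ± 21.8 CPM) were the next type, well apart from astrocytes, and were followed by interneurons (208 ± 46.6) and oligodendrocyte progenitors (152 ± 11.4). Excitatory neurons were at 75.2 ± 2.60 CPM, below the 98.8 ± 11.2 CPM of barcodes with at most 50 UMIs in the PFC, and oligodendrocytes were lowest at 53.1 ± 17.9. Mature oligodendrocytes were thus well below newly formed ones, and in the striatum too, where they were at 51.3 ± 14.0 CPM. In the striatum astrocytes (292 ± 143 CPM) and newly formed oligodendrocytes (254 ± 96.5) overlapped, and the lowest astrocyte value, 84.9 CPM, came from 8 UMIs in the 31 astrocytes of Setd1a+/- replicate 2. Among the excitatory subtypes DL-Foxp2 (100 ± 13.1 CPM) and SL-Cux2 (88.2 ± 6.86) had the highest means, with ranges that overlapped that of those barcodes (86.6 to 112 CPM), whereas SL-Myh7 (32.8 ± 17.2), DL-Pou3f1 (21.2 ± 16.3) and DL-Tshz2 (14.9 ± 5.75) were low and stood apart from the rest. DL-Foxp2 neurons thus had the highest mean of Mgll and, with DL-Tshz2, the lowest Cnr1 among these subtypes, and DL-Tshz2 neurons were low for both genes.

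Abhd6 (GRCm38 chr14:8002902-8056763, plus strand), which acts on 2-AG in postsynaptic membranes, also had its highest mean in astrocytes. It was at 118, 125, 120 and 89.5 CPM in the PFC libraries and at 103, 85.6, 87.9 and 31.9 CPM in the striatal ones, the last from 3 UMIs. Astrocytes overlapped the next type in both tissues, PFC interneurons (55.8 to 91.4 CPM) and striatal oligodendrocyte progenitors (49.3 to 73.6). The ranges of the other types formed a chain of overlaps in both tissues, from interneurons (69.5 ± 16.0 CPM) to oligodendrocytes (29.3 ± 11.3) in the PFC. Abhd12 (GRCm38 chr2:150832493-150904741, minus strand), a lipase that also acts on lysophosphatidylserine, had its highest level in microglia, with 156, 135, 172 and 117 CPM in the PFC and 139, 112, 138 and 164 CPM in the striatum. Microglia stood apart from the next type in both tissues, which was excitatory neurons in the PFC (96.6 ± 2.85 CPM) and interneurons in the striatum (84.0 ± 12.9). Its lowest levels were 16.3 ± 4.08 CPM in PFC endothelial cells and a mean of 16.0 in striatal neuroblasts and stem cells, where the libraries ran from 5.01 to 27.2.

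For anandamide, the hydrolase Faah (GRCm38 chr4:115967145-116017926, minus strand) was highest within the PFC in excitatory neurons, at 54.0, 52.5, 52.0 and 63.3 CPM (mean 55.4 ± 5.29). PFC oligodendrocytes overlapped them with 18.0, 75.1, 20.4 and 65.7 CPM, a spread that followed the replicate number and not the genotype. In the striatum oligodendrocytes were highest (67.2 ± 19.5 CPM), and D1 MSN (12.6 ± 3.10) and D2 MSN (7.45 ± 2.44) were low. Astrocytes and endothelial cells of the PFC had 2.27 and 1.15 CPM. Napepld (GRCm38 chr5:21662901-21701396, minus strand), the phospholipase that can make anandamide, was sparse everywhere. It was at 25.4 ± 8.07 CPM in PFC endothelial cells and 23.7 ± 10.0 in PFC oligodendrocytes, which overlapped, and at 25.3 ± 8.80 in striatal oligodendrocytes. D1 and D2 MSN had 2.52 and 2.75 CPM of Napepld, where PFC excitatory neurons had 17.1 ± 5.18.

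**Figure D2:**
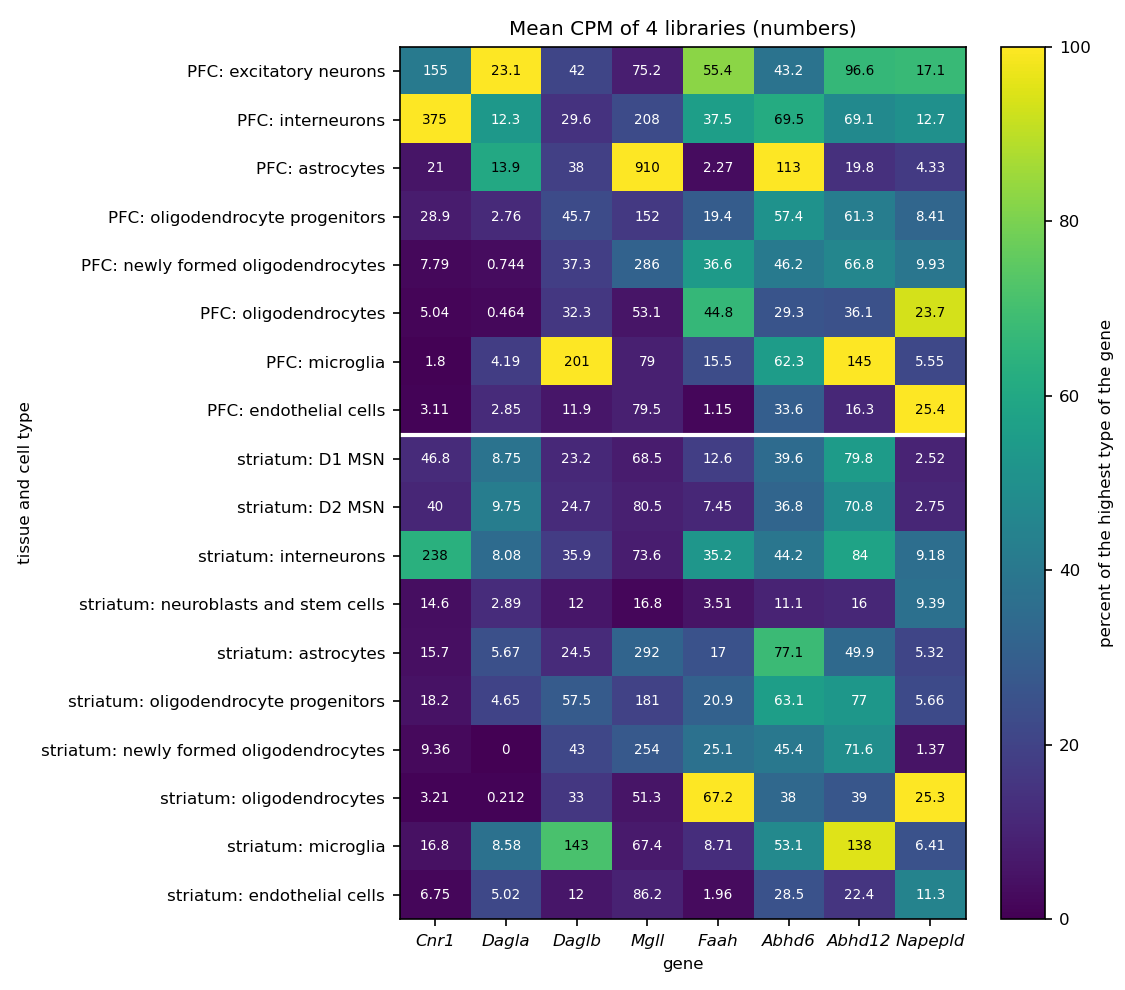
Mean CPM over 4 libraries (printed in each cell) of the 8 genes (columns) in the 18 cell types (rows, PFC above striatum), colored as percent of the highest type of the gene. Cnr1 peaks in interneurons, Dagla in PFC excitatory neurons, Mgll and Abhd6 in astrocytes, Daglb and Abhd12 in microglia, and Faah and Napepld are spread over oligodendrocytes and 1 or more other types.

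Barcodes with at most 50 UMIs held the other genes too. In the PFC they gave means of 13.8 CPM of Dagla, 36.5 of Daglb, 38.7 of Faah, 27.7 of Abhd6, 80.3 of Abhd12 and 9.64 of Napepld. In the striatum the means were 9.78 CPM of Dagla, 27.7 of Daglb, 71.4 of Mgll, 15.9 of Faah, 33.9 of Abhd6, 98.9 of Abhd12 and 6.92 of Napepld. Over the 8 genes and 5 neuronal types, 20 of 40 means were below the level in these barcodes. They were Mgll in PFC excitatory neurons, Dagla, Daglb, Faah and Abhd12 in PFC interneurons, Dagla and Abhd12 in striatal interneurons, 7 genes in D1 MSN (not Abhd6) and 6 in D2 MSN (not Abhd6 or Mgll). The same share over all genes was not computed, so the count is no result about these genes. The level in these barcodes is no floor, since cells can lie below it, as the glial types of the PFC did for Cnr1.

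In all, 3 of the 8 genes were highest in a neuronal type in the PFC (Cnr1, Dagla and Faah) and 2 in the striatum (Cnr1 and Dagla), where Dagla was highest in microglia without Setd1a+/- replicate 2 and in interneurons without Setd1a+/- replicate 1. In the PFC the highest type of Napepld became oligodendrocytes without WT replicate 2. Over the 18 type means, on the scale of log2(CPM + 1), Mgll and Abhd6 had a Pearson correlation of 0.83, Daglb and Abhd12 of 0.78, and Cnr1 and Dagla of 0.67, whereas Cnr1 and Mgll had 0.11. These values describe 18 points that share libraries, dissociation and type-specific depth. Among 11304 genes, those most like Cnr1 by the same measure were Ttc3 (0.96), Cgref1, Pgam1, Zwint and Snap47 (0.95 each), all with their highest mean in PFC interneurons. Dagla was most like Kalrn (0.91), Camta2 and Cap2, Daglb most like the lysosomal protease gene Ctsb (0.94), Ssr4 and Psap, and Mgll most like Rrs1 (0.88), Rasa2 and Mfap3l. The closest genes were Ralgps1, Scamp5 and Capn5 for Faah (0.90, 0.85 and 0.85), Sdf2, Slc33a1 and Agpat3 for Abhd6 (0.85, 0.84 and 0.83), Orai2, Vps9d1 and Erp29 for Abhd12 (0.93, 0.89 and 0.85), and Arfgap3, Mum1 and Bnip3l for Napepld (0.85, 0.84 and 0.83).

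The interneurons were then split within each library by a UMI of a class marker. CB1 interneurons are classically those with Cck, but a Cck UMI in a droplet does not by itself place a cell in that class. In the PFC it was found in 40.1% of interneurons, 65.9% of excitatory neurons and 2.79 to 5.71% of the glial and vascular types, and barcodes with at most 50 UMIs held Cck at 510 CPM, above the 312 CPM of interneurons. In the striatum it was found in 19.3% of interneurons, at 378 CPM, and those barcodes held 46.1 CPM. How many cells with a Cck UMI expressed the gene was not tested. In PFC interneurons Cnr1 was at 134, 148, 345 and 701 CPM in cells with a Cck UMI (PFC WT replicates 1 and 2, Setd1a+/- replicates 1 and 2) and at 398, 385, 498 and 365 CPM in cells without one. Only Setd1a+/- replicate 2 was higher with Cck. The log2 difference was -0.50 (SE 0.18) and was not called (edgeR quasi-likelihood test, FDR = 0.0986). Without Setd1a+/- replicate 2 it was -1.06 and was called lower (FDR = 4.6e-05), and Abhd6 was called higher (1.14, FDR = 0.0368). The split of Vip, a marker of an interneuron class that overlaps the Cck class, was also examined. Cnr1 was at 987, 631, 710 and 1051 CPM in cells with a Vip UMI (6 to 21 cells per library) and at 221, 256, 379 and 300 CPM in the others. This and the following splits have no test. Cells with a UMI of Lamp5, of Npy or of Pvalb held less Cnr1 than the others in every library that had such cells (3 libraries for Pvalb), with means of 234 against 467 CPM for Lamp5, 290 against 570 for Npy and 121 against 400 for Pvalb (up to 10 Pvalb cells in a library). A UMI of Npy was found in 61.3% of PFC interneurons, 22.4% of oligodendrocyte progenitors and 11.1% of excitatory neurons, and one of Lamp5 in 33.4% of interneurons and 0.169% of oligodendrocytes. Barcodes with at most 50 UMIs held Npy at 809 CPM, Lamp5 at 62.5, Pvalb at 13.8 and Vip at 92.3. Cells with an Npy or a Lamp5 UMI were deeper than the others in 4 of 4 libraries and cells with a Vip UMI in 0 of 4, and the part of depth and free RNA was not tested. Cells with an Sst UMI (309 ± 36.3 CPM) and without (415 ± 190) overlapped.

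In PFC interneurons with a Cck UMI, Mgll was at 341, 231, 246 and 298 CPM, and without one at 199, 164, 88.7 and 163 CPM, so that the sides did not overlap. It was higher with Cck by 0.85 (log2, SE 0.18, FDR = 0.00054), and was the only one of the 4 genes tested there that was called (4.95% of 4266 genes were called in this comparison). DESeq2 gave a difference of 0.87 that was not called (FDR = 0.195). Mgll was also high in cells with a Lamp5 UMI, at 507, 317, 284 and 367 CPM against 105, 132, 78.2 and 109 CPM without. Depth moved with the Cck split: median UMIs per cell were 4989 to 7730 with a Cck UMI and 4290 to 6804 without. After thinning, 7 to 23 cells with a Cck UMI were left in a PFC library, too few for a test. Mgll was then at 249 ± 86.9 CPM with Cck and 158 ± 65.1 without, higher with Cck in 3 of 4 libraries, and Cnr1 was at 524 ± 353 with and 418 ± 129 without, also higher in 3 of 4, where it was higher in 1 of 4 at full depth.

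In the striatal interneuron cluster, Cnr1 was at 562, 118, 312 and 345 CPM with a Cck UMI and at 151, 214, 195 and 257 CPM without (striatum WT replicates 1 and 2, Setd1a+/- replicates 1 and 2). It was higher with Cck in 3 of 4 libraries, by 0.62 (log2, SE 0.24), which was not called (FDR = 0.0712). None of the 6 genes tested there was called, against 15.9% of all 7740 genes. At an unadjusted p under 0.05 there were 2, Cnr1 and Abhd12, and DESeq2 called none. The value rested on single libraries: it was 0.08 (FDR = 0.856) without WT replicate 1 and 1.06 (FDR = 0.000962) without WT replicate 2. Without Setd1a+/- replicate 2, Mgll was called higher with Cck (0.83, FDR = 0.0202). Cnr1 was called higher with Cck when every cell was thinned to 1000 UMIs (0.92, FDR = 0.0439). A Cck UMI was found in 13.0 to 23.8% of the 138 to 248 cells of this cluster in a library. Most of these cells carried an excitatory marker UMI, so that the split did not separate interneuron classes alone. With the cells carrying an excitatory marker left out, 4 to 16 cells with a Cck UMI remained in a library. They held Cnr1 at 2189, 219, 1233 and 1389 CPM, against 182, 243, 231 and 292 CPM without Cck. At these cell numbers no test was made. In the same cluster, cells with a Pvalb UMI (7 to 22 cells per library) had more Cnr1 than the others in 4 of 4 libraries (588 ± 102 against 211 ± 48.2 CPM), and cells with an Sst UMI had less in 4 of 4 (129 ± 38.1 against 272 ± 46.7). Cells with an Npy UMI had more Cnr1 in 4 of 4 libraries, at 193 to 1143 CPM against 128 to 249. An Npy UMI was found in 19.9% of this cluster and 4.06% of oligodendrocytes, and barcodes with at most 50 UMIs held Npy at 568 CPM. A Pvalb UMI was found in 6.38% of this cluster and 16.5% of newly formed oligodendrocytes. An Sst UMI was found in 22.3% of the cluster, 9.37% of D1 MSN and 10.1% of D2 MSN. Those barcodes held Pvalb at 27.7 CPM and Sst at 842 CPM. Cells with a Pvalb or an Sst UMI were deeper than the others in 4 of 4 libraries, and cells with an Npy UMI in 3 of 4. The part of depth and free RNA was not tested. The part of the excitatory-marker cells, which held little Cnr1, in these splits was not tested. The difference of the Cck split between the tissues, tested in 1 fit chosen after these values were seen, was 1.17 (log2, striatum minus PFC, SE 0.40) and was not called for Cnr1 (FDR = 0.0546; 10.6% of 6313 genes were called). The excitatory-marker cells were kept in this fit.

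MSNs were split by Crym, a gene of ventral and medial striatum. A Crym UMI was found in 55.5% of D1 MSN, 54.6% of D2 MSN, 50.4% of astrocytes and 5.94% of oligodendrocytes. Barcodes with at most 50 UMIs held Crym at 345 CPM, where D1 MSN were at 379 and D2 MSN at 329, and how many MSNs with a Crym UMI expressed the gene was not tested. Cnr1 was lower in MSNs with a Crym UMI in 4 of 4 libraries and in both types. In D1 MSN it was at 25.1, 31.2, 47.1 and 35.7 CPM with Crym and at 47.5, 80.8, 53.0 and 73.9 CPM without. The ranges did not overlap, and the log2 difference was -0.999 (SE 0.13, FDR = 4.38e-10). In D2 MSN it was at 14.2, 20.02, 26.8 and 8.97 CPM with Crym and at 31.3, 91.7, 89.4 and 59.2 CPM without, a log2 difference of -1.99 (SE 0.18, FDR = 2.3e-11). Cnr1 was the only gene of the 8 that was called in either type, with 7 and 6 tested, beside 2.35% of all genes in D1 MSN and 2.06% in D2 MSN. The decrease was larger in D2 than in D1 MSN by 1.01 (log2, SE 0.23, FDR = 0.0157; 0.602% of 9964 genes were called), in a fit also chosen after the values were seen. Mgll was higher with Crym in 4 of 4 libraries in D1 MSN (76.3 ± 11.6 against 57.9 ± 8.72 CPM), by 0.33 (log2, FDR = 0.0429), which is under the FC cutoff. Depth moved with the Crym split in D1 MSN, where the median was 2738 to 3848 UMIs with and 2520.5 to 3305 without Crym and higher with Crym in 4 of 4 libraries. In D2 MSN it was 2740 to 4025 UMIs with and 2744 to 4216 without, and higher with Crym in 1 of 4. After thinning, Cnr1 in D1 MSN still differed by -0.88 but was no longer called (FDR = 0.0805), while the call in D2 MSN held.

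**Figure D3:**
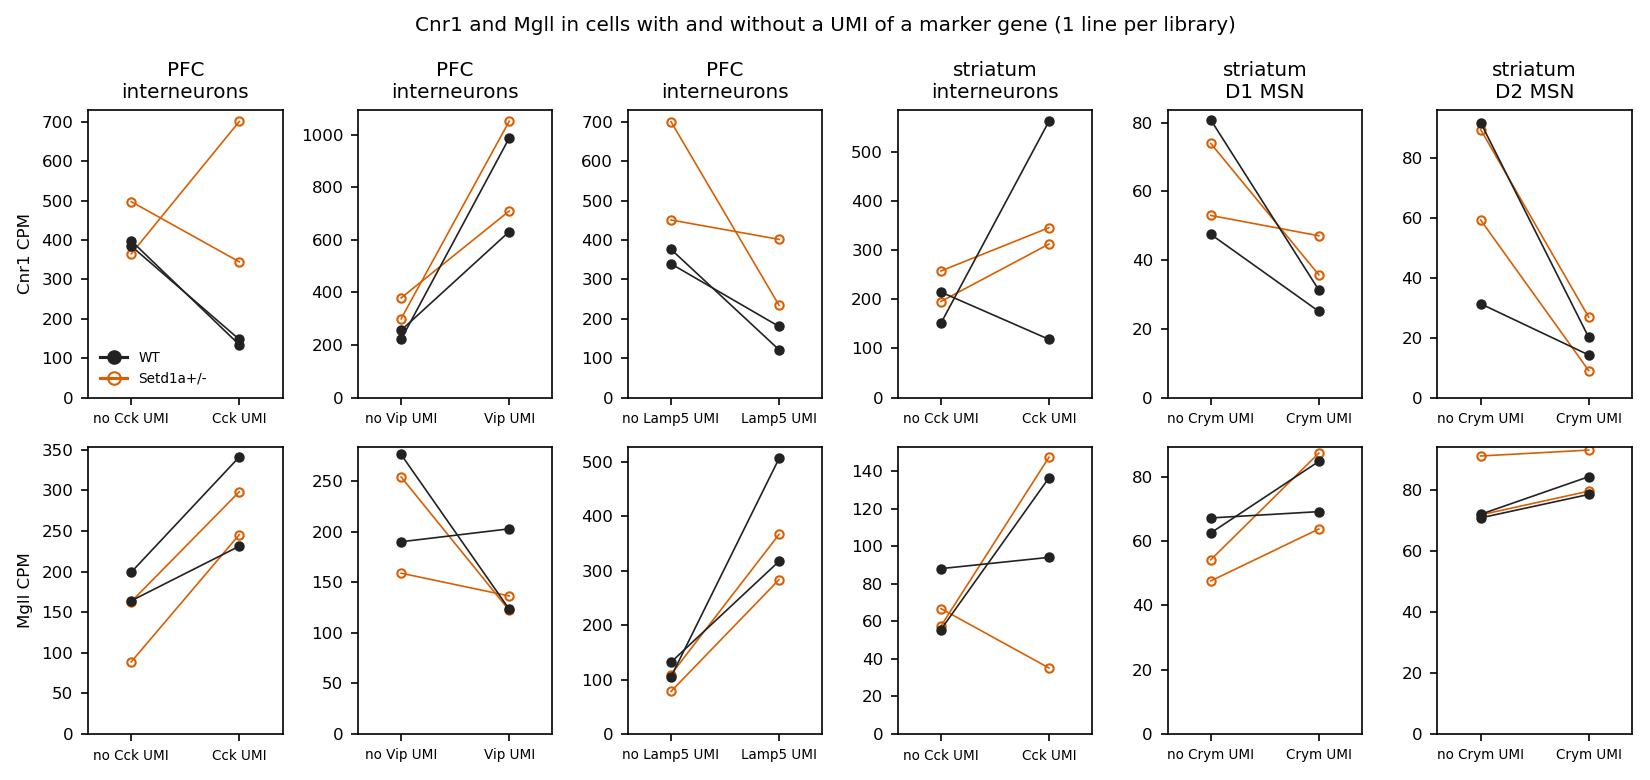
CPM of Cnr1 (top) and Mgll (bottom) in cells without and with a UMI of the marker gene named on the axis, 1 line per library (filled WT, open Setd1a+/-). Cnr1 is lower with Crym in every library of D1 and D2 MSN and higher with Vip in every PFC library, whereas the Cck lines of Cnr1 run in both directions in both tissues.

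Stard5 and Upb1, which mark ventromedial MSN subtypes in the study, were examined without a test. With Stard5, Cnr1 was at 25.3 ± 4.24 against 49.9 ± 10.2 CPM in D1 MSN and 11.9 ± 10.8 against 44.9 ± 16.2 in D2 MSN, lower with Stard5 in 4 of 4 libraries of each. A Stard5 UMI was found in 12.1% of D1 MSN, 14.3% of D2 MSN and 4.48% of oligodendrocytes. Stard5 was at 43.6 CPM in D1 MSN, 48.1 in D2 MSN and 22.0 in barcodes with at most 50 UMIs. Cells with a Stard5 UMI were deeper than the others in 3 of 4 libraries of each type. The part of depth and free RNA in the Stard5 split was not tested. With Upb1, Cnr1 in D2 MSN was at 34.3 ± 19.8 against 41.0 ± 13.4 CPM without, lower in 3 of 4 libraries, and these ranges overlapped. In D1 MSN 2 to 3 cells of a library carried an Upb1 UMI. Mgll was higher with Stard5 in 4 of 4 libraries of D1 MSN (95.9 ± 10.9 against 64.5 ± 8.73 CPM) and in 3 of 4 of D2 MSN. A UMI of Rasgrf2, a marker of dorsolateral striatum, was rare. In D1 MSN, Cnr1 was at 38.7 ± 17.6 CPM with Rasgrf2 and 47.2 ± 9.29 without (log2 difference -0.41, SE 0.30, FDR = 0.823). Mgll was at 27.9, 36.0, 36.0 and 7.02 CPM with Rasgrf2, from 1 to 9 UMIs in a library, and at 78.3, 70.3, 76.2 and 58.1 CPM without. It was lower with Rasgrf2 (log2 difference -1.40, SE 0.30, FDR = 0.0014), the 1 called of 7 tested, where 0.536% of all genes were called. DESeq2 gave no adjusted p for it. Rasgrf2 was at 14.8 CPM in D1 MSN and at 21.1 CPM in barcodes with at most 50 UMIs, its UMI was found in 4.19% of D1 MSN and 0.514% of oligodendrocytes, and D1 MSN with it were deeper in 4 of 4 libraries (median 3120 to 4895.5 UMIs against 2622.5 to 3628). The part of free RNA and of depth in this call was not tested. Without Setd1a+/- replicate 2, which held 1 UMI, it was -1.19 and not called (FDR = 0.0959). In D2 MSN as few as 4 cells of a library carried a Rasgrf2 UMI, and the split could not be fitted.

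The tissues were compared in the 7 cell types annotated in both, with genotype as a covariate and all 8 libraries. Mgll was lower in the striatum in interneurons and in astrocytes. In interneurons it was at 266, 191, 155 and 218 CPM in the PFC and at 78.0, 89.7, 70.2 and 56.6 CPM in the striatum, a log2 difference of -1.46 (striatum minus PFC, SE 0.18, FDR = 7.3e-05) with no overlap. A Lamp5 UMI was found in 33.4% of PFC and 8.84% of striatal interneurons, and a Vip UMI in 20.5% and 1.29%. The 3 interneuron markers summed to 2876 to 4350 CPM in PFC and 1016 to 1393 CPM in striatal interneurons. The part of these shifts in the Mgll difference was not tested. In astrocytes the PFC values of 800 to 1008 CPM stood against 407, 318, 358 and 84.9 CPM, a log2 difference of -1.62 (SE 0.29, FDR = 0.000992). Leaving out the library with 31 astrocytes kept this call. Marker levels moved with it: in astrocytes the 3 astrocyte markers summed to 4853 to 6518 CPM in PFC and 2410 to 3776 CPM in striatal libraries, the 3 D1 MSN markers to 0 to 3.67 and 52.9 to 387, and the 3 D2 MSN markers to 0 to 8.14 and 118 to 542. Their part in the result was not tested. In interneurons 1 of 6 genes tested was called, where 12.2% of all genes were, and in astrocytes 1 of 5, where 12.5% were. No member was called in oligodendrocyte progenitors (0 of 6, against 0.26% of all genes), newly formed oligodendrocytes (0 of 3, 0.0604%), oligodendrocytes (0 of 6, 2.89%), microglia (0 of 4, 22.4%) or endothelial cells (0 of 6, 6.88%). In these 5 types 2 member fits had an unadjusted p under 0.05 with edgeR, and DESeq2 called none.

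Cnr1 in interneurons differed by -0.58 (SE 0.18, FDR = 0.0471), just under the FC cutoff of 1.5, and was called with library size alone, with the replicate block (-0.59, FDR = 0.0412), and without PFC WT replicate 1 or striatum WT replicate 1. With the cells carrying an excitatory marker UMI left out, an alternative chosen after seeing the data, it was -0.18 (SE 0.19, FDR = 0.608), whereas Mgll remained lower in the striatum by the same test (-1.41, FDR = 0.000289). Abhd6 in interneurons was at 91.4, 55.8, 71.0 and 59.6 CPM in the PFC and at 54.5, 37.8, 46.8 and 37.7 CPM in the striatum (-0.61, FDR = 0.0804), and was called only with the replicate block (-0.61, FDR = 0.0467). Without the cells carrying an excitatory marker UMI the Abhd6 difference was -0.34 (SE 0.22, FDR = 0.387). Napepld in endothelial cells was at 23.5, 29.2, 15.0 and 33.8 CPM in the PFC and at 13.9, 9.87, 8.82 and 12.7 CPM in the striatum. The ranges did not overlap, but the log2 difference of -1.07 (SE 0.31) was not called (FDR = 0.0562). It was called with the replicate block (FDR = 0.0289), with library size alone (FDR = 0.0424), with no filter (FDR = 0.00652) and without PFC Setd1a+/- replicate 1 (FDR = 0.0272). Daglb in microglia was lower in the striatum by 0.58 on the log2 scale (a log2 difference of -0.58, SE 0.24, FDR = 0.109), which did not pass. By the study's methods the striatum was digested with papain for longer than the PFC, so that tissue and digestion cannot be told apart.

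**Figure D4:**
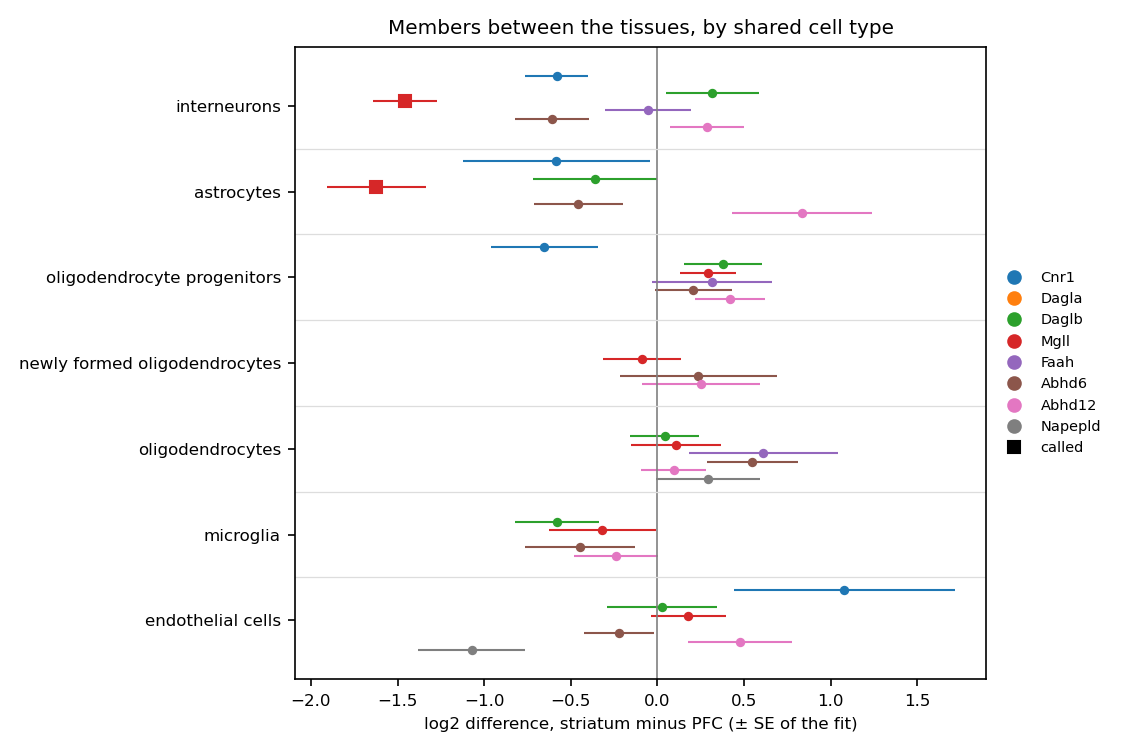
Fitted log2 difference, striatum minus PFC, ± SE for each gene that passed the filter in each of the 7 shared cell types; squares were called at FDR under 0.05 and FC above 1.5. The 2 squares are Mgll in interneurons (-1.46) and in astrocytes (-1.62).

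Finally, Setd1a+/- libraries were compared with WT libraries in each type. In the PFC cell types none of the 41 fits of a member was called (edgeR, FDR under 0.05 and FC above 1.5), where 0% of 51145 fits over all genes were called. At an unadjusted p under 0.05 there were 2 member fits and 869 fits over all genes, and DESeq2 called no member and 1 gene in all. The median absolute log2 difference was 0.16 over the members and between 0.16 and 0.26 over all genes of a type. Cnr1 in PFC interneurons was higher in both Setd1a+/- libraries (433 and 503 CPM) than in both WT libraries (274 and 289 CPM), a log2 difference of 0.75 (SE 0.26) that did not pass the adjustment (FDR = 0.9996). The share of the interneurons with a Vip UMI moved with it, being 6 of 48 and 11 of 100 cells in the WT libraries and 21 of 90 and 21 of 60 cells in the Setd1a+/- libraries, and its part in the difference was not tested. The other fit with an unadjusted p under 0.05 was Abhd6 in newly formed oligodendrocytes. The WT libraries were at 32.7 and 15.3 CPM and the mutant ones at 74.1 and 62.8, from 3 to 19 UMIs each (log2 difference 1.43, SE 0.58, FDR = 0.9999). For Napepld in excitatory neurons the WT libraries gave 22.5 and 19.5 CPM and the mutant ones 10.5 and 15.9 (log2 difference -0.66, SE 0.30, FDR = 0.9998).

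Among the excitatory subtypes of the PFC, 0 of 41 member fits were called, beside 0% of 44783 over all genes, and DESeq2 called none. The 1 member fit with an unadjusted p under 0.05 was Napepld in SL-Cux2 neurons, with 31.8 and 22.4 CPM in the WT libraries against 10.2 and 14.8 in the mutant ones (log2 difference -1.06, SE 0.44, FDR = 0.9997). DL-Pou3f1 neurons, with 7 cells in a library, were not fitted. In the striatal types none of 50 member fits was called at the cutoff of FC above 2, beside 0.00544% of 73479 over all genes, no member had an unadjusted p under 0.05, and DESeq2 called no member. No member passed the filter in neuroblasts and stem cells. The 37 fits of the genotype by tissue interaction gave 0 calls of members and 0% of 49915 over all genes, with no member at an unadjusted p under 0.05 and none called by DESeq2. With the replicate number as a block no member was called in these comparisons either, and 4 of 41 member fits in the PFC types, 3 of 41 in the PFC subtypes and 4 of 50 in the striatal types had an unadjusted p under 0.05. Over all genes the block moved the calls from 0 to 26, from 0 to 11 and from 4 to 79. With 2 libraries per group these comparisons leave wide margins: the SE of the log2 difference was 0.26 for Cnr1 in PFC interneurons.

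**Figure D5:**
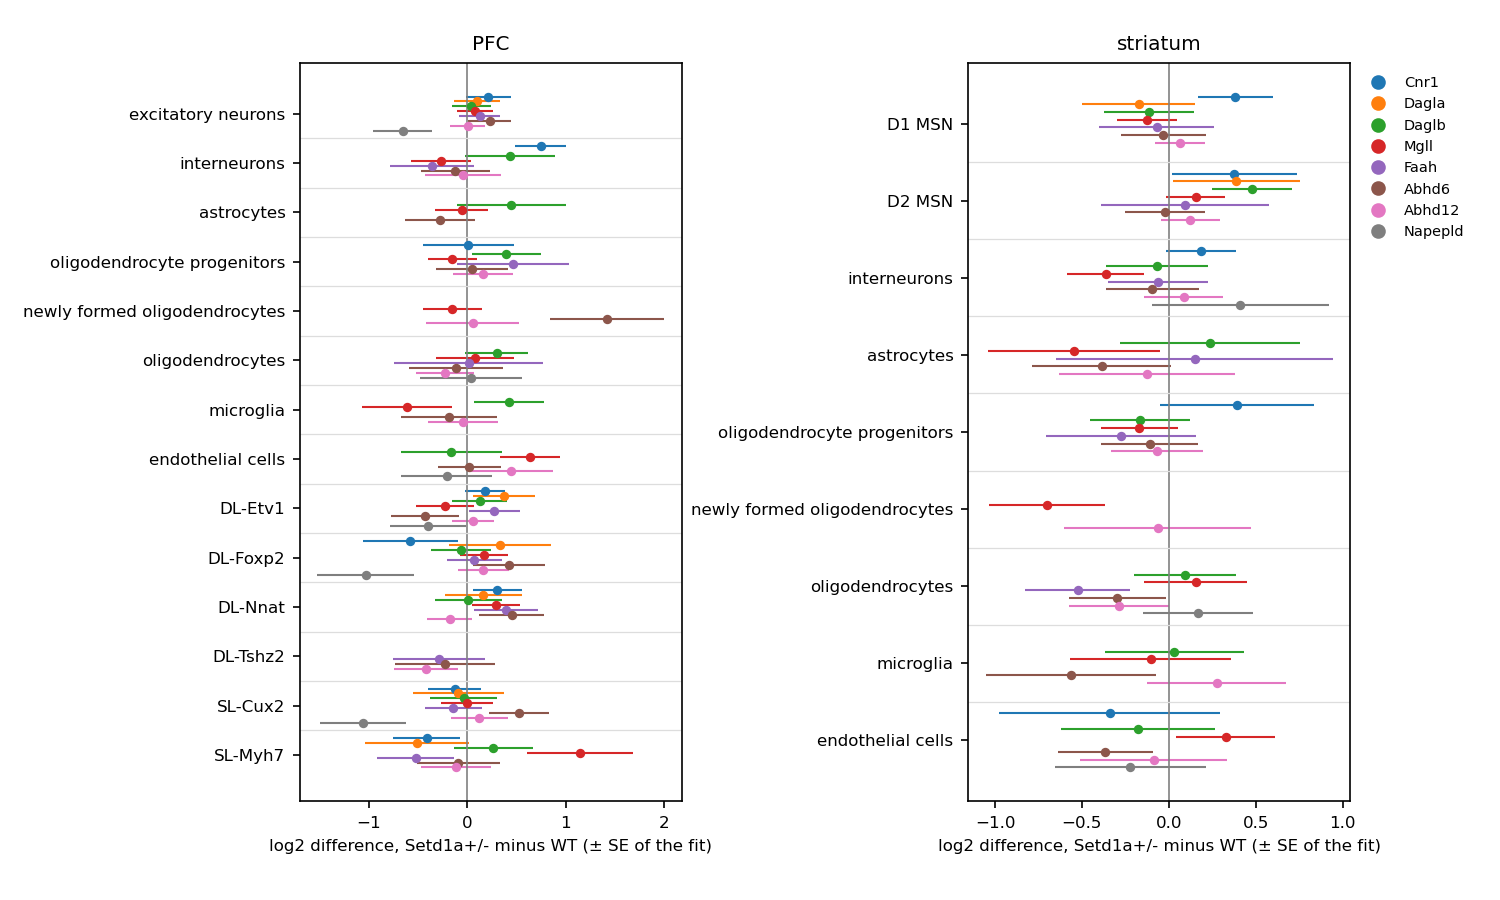
Fitted log2 difference, Setd1a+/- minus WT, ± SE for each gene that passed the filter, by PFC cell type and excitatory subtype (left) and striatal cell type (right). No point was called; the largest difference is 1.43 for Abhd6 in PFC newly formed oligodendrocytes.

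The other genes of the endocannabinoid pathway, a list of 36 receptors, G proteins, drivers of 2-AG synthesis, alternative enzymes and lipid carriers, all present in the matrices, gave no genotype call in 138, 130 and 196 fits in the PFC types, PFC subtypes and striatal types. Between the tissues 13 of 131 fits were called higher in the striatum and 3 lower, beside 3387 of 45946 fits over all genes called in either direction. Microglia held 5 of the higher calls and 1 lower call, of 13 list genes tested, where 22.4% of all genes were called. Endothelial cells held 5 higher and 0 lower of 25 tested, where 6.88% of all genes were called. Interneurons held 2 higher and 1 lower of 22 (12.2% of all genes), and astrocytes 1 higher and 1 lower of 17 (12.5%). In interneurons the G protein gene Gnai2 (log2 difference 0.72, FDR = 0.0337) and the scaffold Homer1 (0.82, FDR = 0.0405) were higher in the striatum. The 3 excitatory markers moved with these calls, summing to 259 to 391 CPM in striatal and 0 to 25.9 CPM in PFC interneurons. With the cells carrying an excitatory marker UMI left out, Homer1 was at -0.31 and no longer called (FDR = 0.403), whereas Gnai2 was at 0.95 (FDR = 0.00654). In astrocytes Gnai2 (1.09, FDR = 0.00665) was higher and the fatty acid binding protein gene Fabp7 (-1.21, FDR = 0.0464) was lower. The 3 astrocyte markers summed to 4853 to 6518 CPM in PFC and 2410 to 3776 CPM in striatal astrocytes. The 3 D2 MSN markers summed to 0 to 8.14 and 118 to 542 CPM, and the part of these shifts was not tested. In microglia and endothelial cells Grm5 (3.04, FDR = 0.00289, and 3.83, FDR = 0.00089) and Gprasp1 (2.10, FDR = 0.00519, and 0.92, FDR = 0.0223) were higher in the striatum. The 3 D1 MSN markers moved with them, summing to 696 to 1014 CPM in striatal and 0 to 3.55 CPM in PFC microglia and to 76.0 to 406 CPM in striatal and 0 in PFC endothelial cells, and their part in these calls was not tested. In the Cck split of the striatal interneuron cluster Homer1 (1.71, FDR = 4.97e-06) and the muscarinic receptor gene Chrm1 (1.21, FDR = 0.00317) were higher on the Cck side. The phospholipase gene Plcb4 (-1.23, FDR = 0.00497) was lower there, and in PFC interneurons Fabp5 was lower (-0.71, FDR = 0.0229). Of 22 list genes tested in the striatal split, 2 were called higher and 2 lower, where 15.9% of all 7740 genes were called. Of 17 tested in the PFC split, 0 were higher and 2 lower, where 4.95% of 4266 genes were called. In the striatal cluster 197 of 821 cells carried an excitatory marker UMI, and so did most of its cells with a Cck UMI. The striatal calls thus compare a Cck side made mostly of such cells with the rest of the cluster. The part of excitatory-marker cells in these calls was not tested, because as few as 4 cells with Cck remained in a library without them. With Crym, Plcb4 was lower in D1 MSN (-1.56, FDR = 0.00167) and Plcb1 in D2 MSN (-0.67, FDR = 4.57e-08), where the G protein gene Gnai1 (0.63, FDR = 0.0199) and the acyltransferase gene Hrasls (0.63, FDR = 0.0386) were higher. In D1 MSN 0 list genes were called higher and 1 lower of 25 tested, beside 2.35% of all genes. In D2 MSN 2 were higher and 1 lower of 23 tested, beside 2.06%.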

How the data were processed

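Single cells of PFC and striatum were captured on the 10x Chromium platform. The authors counted UMIs per gene and barcode and deposited raw UMI counts for each library with a table of annotated cells, from which cell types and subtypes were taken. The submitters' processing notes name Cell Ranger 3.0.2, Seurat 3.2.0 and mm10, and how doublets were treated was not given in the sources used here. Levels are CPM of UMIs summed per type and library, as mean ± SD over libraries. Gene coordinates are of GENCODE vM21.

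Summed UMIs were tested with edgeR 4.0.16 (TMM, filterByExpr with a minimum count of 10, quasi-likelihood test), with Benjamini-Hochberg adjustment over all genes of a fit (FDR). A gene was called at FDR under 0.05 and FC above 1.5, or above 2 for genotype in the striatum. The genotype by tissue interaction and both tests of a difference between splits used FDR under 0.05 alone. Splits compared cells with and without a marker UMI within each library, with library in the model, and needed 10 cells on each side in every library. Alternatives were DESeq2 1.42.0, library size alone, no filter, each library left out, thinning to 1000 UMIs and the replicate number as a block. The code was tested on simulated data.

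In the study's methods each biological replicate used 1 WT and 1 Setd1a+/- sample. Libraries with the same number in their labels were taken as 1 replicate, a link that the methods do not state. The deviations of same-numbered libraries from their group means had a correlation of 0.556 in the PFC and 0.754 in the striatum over all annotated cells. Within the 8 PFC types it was 0.0920 to 0.721, and within the 10 striatal types 0.0411 to 0.547. P-values of the genotype and tissue tests rest on the spread between these pooled libraries. Those of the splits rest on how the difference within a library varied from library to library. In both, edgeR pools the estimate of variance over genes. A p-value or SE can thus be smaller than a gene's own spread over libraries would give. Cnr1 in the Cck splits ran in both directions between libraries, a spread that its SE does not show. The SE is the absolute log2 difference divided by the square root of the F statistic. The genes and lists were chosen with earlier results of these data known. Named genes are the 8 genes, the 5 genes most like Cnr1 and 3 most like each other gene. Likeness is the correlation of log2(CPM + 1) over type means, among genes reaching 20 CPM. Called pathway genes are named only if among the 4 with the lowest FDR in a contrast, and not all of those are named. In microglia and endothelial cells the genes named were among these 4 in both types. The rule also named the highest pathway gene of each type, which is left out because levels are not compared between genes. Some items of the lists are not reported here.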

Additional observations from a re-analysis of the deposited data

Results flagged for a closer look

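The log2 difference of Cnr1 between MSNs with and without a Crym UMI differed between the MSN types by -1.01 (D2 minus D1, SE 0.23, FDR = 0.0157, edgeR quasi-likelihood test of the interaction in 1 fit). Cnr1 was lower with Crym in 4 of 4 libraries of both types, from a mean of 63.8 to 34.8 CPM in D1 MSN and from 67.9 to 17.5 CPM in D2 MSN. The fit was chosen after the separate values were seen, and 0.602% of the genes tested passed the same threshold.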

How the results depend on the processing

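No genotype or interaction call of a member arose under any alternative, the replicate block included. Of 36 member fits between the tissues 2 were called, and 4 with library size alone. The replicate block gave 5 calls of 37 member fits, no filter gave 3 of 56, and leaving a library out gave 2 to 3 calls. The block changed no other call of a member. In the Cck splits 1 member was called, 0 with DESeq2, 1 in the striatum after thinning (where none was called before) and 1 to 3 with a library left out. In the Rasgrf2 split the count of 1 became 0 with DESeq2, which gave no adjusted p for Mgll, and 0 to 1 with a library left out. In the Crym splits the count of 2 became 1 after thinning and was 2 with any library left out. The number of genes highest in a striatal neuronal type was 2, 1 by percent of cells after thinning, and 1 to 2 with a library left out. In barcodes with at most 20 UMIs, Abhd12 was at 64.5 CPM in the PFC and 71.2 in the striatum, Cnr1 at 47.4 and Daglb at 41.2 in the striatum, against 80.3, 98.9, 57.9 and 27.7 in those with at most 50. The causes were not tested. Thinned Cck splits in the PFC and thinned Rasgrf2 splits were not tested, because fewer than 10 cells were left on a side. DL-Pou3f1 neurons and the Rasgrf2 split of D2 MSN could not be fitted for the same reason. The thinned PFC Cck split is given as CPM alone, and there Cnr1 was higher with Cck in more libraries than at full depth. Without excitatory-marker cells, Homer1 in interneurons went from 0.82 to -0.31 (striatum minus PFC). The comparison without those cells and both tests of a difference between splits were chosen after seeing the data.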
